A study of Mus musculus with 4 samples.

Results

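Mt1 and Mt2 encode metallothioneins, Mtf1 encodes the zinc-sensing transcription factor MTF-1, and Slc30a1 and Slc39a10 encode a zinc exporter and a zinc importer. The 5 genes were picked by name for their role in zinc handling, with earlier results of these data known. Their probes are all non-control probes that carry one of these names in the deposited scanner files. The 5 genes have 8 probes, against 39429 probes with 30175 gene names on the whole array. Mtf1 has 3 probes, Mt1 has 2, and Mt2, Slc30a1 and Slc39a10 have 1 each.

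RNA came from NIH-3T3:Per2-Luc, a mouse fibroblast line with a luciferase gene under the Per2 promoter, which all groups share. The control array (0 mM H2O2) carried RNA of cells given fresh medium and is labelled 4 h, and the other arrays carried RNA from cells that had received a cOS-pulse and were lysed 4 h, 20 h or 32 h later. A cOS-pulse is a critical oxidative stress of 5 mM H2O2 for 10 min. Each condition had 1 array, so differences between conditions could not be tested. Untreated cells at 20 h or 32 h were not analysed here, so at these hours the effect of the pulse and of time since the medium change cannot be told apart. All 8 fibroblast markers examined (Col1a1, Col1a2, Col3a1, Vim, Fn1, S100a4, Pdgfrb and Thy1) were well above background on every array, and their summed signal, over the 75th percentile of the array, was 651 in the control, 567 at 4 h, 585 at 20 h and 596 at 32 h. Of 4 epithelial markers, Epcam, Cdh1 and Krt18 were not well above background on any array and Krt8 was on all, with a summed signal on the same scale of 0.57 in the control and 1.24 at 4 h. Of 3 leukocyte markers, Ptprc and Emr1 were on none and Cd68 was on all, and the summed signal of the 3 was 0.42 in the control and 1.72 at 4 h. Of 3 endothelial markers, Pecam1 and Kdr were on all arrays and Cdh5 on some, with a summed signal of 3.22 in the control and 4.29 at 4 h. The sums include the markers that were not well above background. Because all RNA came from a cultured fibroblast line, the sums are not read as shares of other cell types. The source of the Krt8, Cd68, Pecam1 and Kdr signals was not tested. In bulk RNA, fewer cells of a type and less RNA per cell cannot be told apart.

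Metallothioneins are small, cysteine-rich proteins that bind zinc, copper and cadmium and can also react with oxidants, which releases their zinc. MTF-1 senses free zinc through its zinc fingers, moves to the nucleus and binds short metal response elements in the promoters of the metallothionein genes and of Slc30a1, whose product ZnT1 carries zinc out of the cell. Slc39a10 encodes ZIP10, which carries zinc into the cell, and is known as a gene that MTF-1 can repress when zinc is high.

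The promoter windows of Mt1, Mt2 and Slc30a1 are shown because metal response elements lie in them. Each is a RefSeq window of 300 bases on GRCm38.p6, written along the strand of the gene, in which the transcription start follows base 250. The windows are chr8:94178839-94179138 on the plus strand for Mt1, chr8:94172368-94172667 on the plus strand for Mt2 and chr1:191906531-191906830 on the plus strand for Slc30a1. Capitals mark every match to the core of the metal response element, TGCACNC or TGCGCNC, or to the core of the antioxidant response element, TGACNNNGC, on either strand.
Mt1: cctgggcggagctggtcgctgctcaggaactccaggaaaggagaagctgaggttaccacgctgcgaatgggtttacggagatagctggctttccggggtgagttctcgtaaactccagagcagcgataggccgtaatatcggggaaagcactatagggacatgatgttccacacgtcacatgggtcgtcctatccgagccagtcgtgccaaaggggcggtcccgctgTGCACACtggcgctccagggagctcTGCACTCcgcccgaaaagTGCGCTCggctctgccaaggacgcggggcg
Mt2: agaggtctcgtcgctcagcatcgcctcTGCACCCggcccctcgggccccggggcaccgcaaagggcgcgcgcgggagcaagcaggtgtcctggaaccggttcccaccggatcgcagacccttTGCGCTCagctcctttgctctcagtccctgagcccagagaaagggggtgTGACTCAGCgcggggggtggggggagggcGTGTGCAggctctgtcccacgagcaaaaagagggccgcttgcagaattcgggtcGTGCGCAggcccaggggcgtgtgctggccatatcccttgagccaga
Slc30a1: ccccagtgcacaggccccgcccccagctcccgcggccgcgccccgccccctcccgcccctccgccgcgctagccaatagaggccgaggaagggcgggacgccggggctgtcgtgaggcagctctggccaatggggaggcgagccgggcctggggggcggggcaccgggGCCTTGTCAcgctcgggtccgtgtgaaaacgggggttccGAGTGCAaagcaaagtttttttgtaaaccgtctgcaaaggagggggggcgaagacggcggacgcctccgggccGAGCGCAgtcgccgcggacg

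The Mt1 window held 3 matches to the metal response element, beginning at bases 228, 253 and 271, all on the strand of the gene. The Mt2 window held 4, at bases 28 and 123 on the strand of the gene and at bases 201 and 255 on the other strand. The Slc30a1 window held 2, at bases 208 and 281, both on the other strand. Over all 32851 RefSeq windows, 25.7% held at least 1 match and 1.97% held 3 or more. The antioxidant core occurred once in the Mt2 window, at base 172, and once in the Slc30a1 window, at base 169 on the other strand, against 12.4% of all windows. The Mt1 window and the windows of Mtf1 (1 window) and Slc39a10 (2 windows) held no antioxidant core, and those of Mtf1 and Slc39a10 held no match to the metal response element either. A match shows only that these letters are present, and none of them overlapped another. Only these windows around the RefSeq starts were searched, so a window without a core does not show that the promoter lacks one.

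The probes are 60 bases long, and their positions are those of the array annotation (mm9). Both metallothionein genes lie on chromosome 8, where the Mt2 probe (96697371 to 96697430) starts 6794 bases before the brighter Mt1 probe (96704165 to 96704224). The dimmer Mt1 probe (96703844 to 96703903) starts 321 bases before the brighter one. The brighter Mt1 probe is annotated to the RefSeq transcript NM_013602, while the dimmer one is annotated to an Ensembl transcript of Mt1 and not to that RefSeq transcript. The exon structure of mm9 was not used here, so the exon or intron that each probe covers is not given. The last 30 bases of the 3 metallothionein probes are shown because the probes of Mt1 gave different ratios. Capitals mark the polyadenylation hexamer AATAAA, which only the brighter Mt1 probe held (from base 41 of the probe). Whether the hexamer bears on the ratios was not tested.
Mt1 brighter probe: gtacgtgaatAATAAAagcctgtttgagtc
Mt1 dimmer probe: cggaggccattgtattgtctcggggacaga
Mt2 probe: ctcgttctccacaactttttctataaagca

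The Mtf1 probes lie on chromosome 4 at 124526365 to 124526424 (brightest), 124522092 to 124522151 (middle) and 124524812 to 124524871 (dimmest). The Slc30a1 probe lies on chromosome 1 at 193736760 to 193736819, and the Slc39a10 probe on chromosome 1 at 46865343 to 46865402, on the minus strand.

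At 4 h after cOS-pulse, Slc30a1, the dimmer probe of Mt1 and the brightest probe of Mtf1 exceeded the control at least 2-fold. The brighter Mt1 probe, Mt2 and the middle Mtf1 probe were above the control by less than 2-fold, and Slc39a10 was level with it. At 20 h and 32 h all 7 probes with a ratio were within 2-fold of the control. The ratios below are log2 ratios of the signals after the 75th percentile of each array was subtracted, and the error is that of the scanner software for the 2 spots, which covers the spot and not the culture. The signal of a probe is its intensity in scanner units after the trend correction of the scanner software and before this scaling.

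Of the 8 probes, 3 were at least 2-fold higher at 4 h, against 6.77% of all 39429 probes, and 0 were at least 2-fold lower, against 4.94%. Only 23813 of all probes had a ratio at 4 h, with 2671 of them at least 2-fold higher and 1947 lower. All of the 8 but the dimmest Mtf1 probe had one. At 20 h, 0 of 8 were at least 2-fold higher or lower, against 0.763% and 1.87% of all probes. At 32 h it was again 0 of 8 in either direction, against 1.15% and 1.43%. Between 20 h and 32 h, 0 of 8 differed at least 2-fold, where 0.497% of all probes were higher at 20 h and 1.06% were higher at 32 h. With shares this small over all probes, nothing about the genes is read from a count of 0 among 8.

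**Figure D1:**
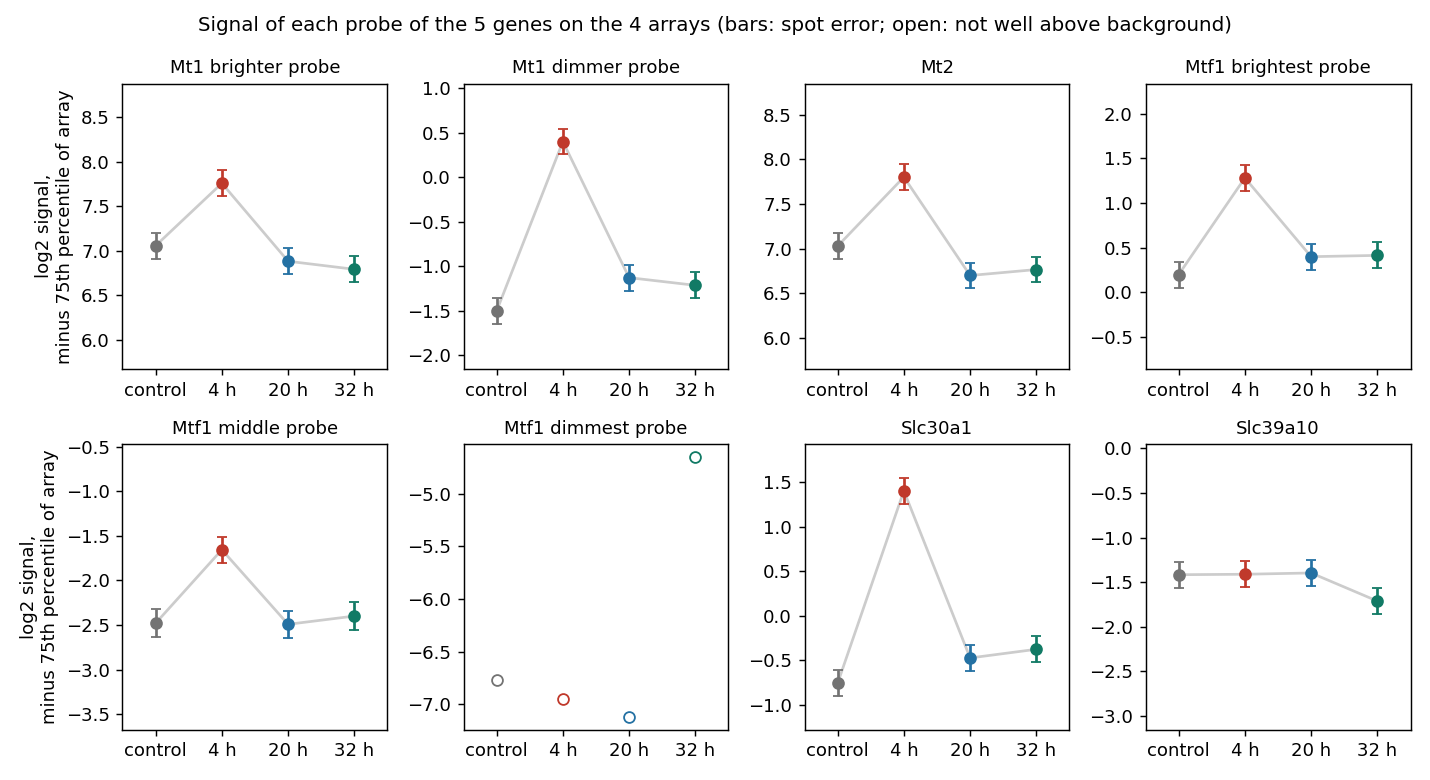
Log2 signal of each of the 8 probes, minus the 75th percentile of its array, for the control and for the 3 times after cOS-pulse, with 1 array per point. Bars are the spot error, and open points were not well above background. The panels of the 7 detected probes span the same log2 range, and the panel of the dimmest Mtf1 probe has its own. The 4 h point is the highest of the 4 in 6 panels, while the Slc39a10 points lie within 0.32 of each other.

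Mtf1, the metal sensor itself, had signals of 1269 in the control, 2216 at 4 h, 1837 at 20 h and 1668 at 32 h with its brightest probe. The 4 h array was the highest and the control the lowest. This gave a log2 ratio over the control of 1.09 ± 0.20 at 4 h (2.12-fold), 0.20 ± 0.20 at 20 h and 0.22 ± 0.20 at 32 h. The middle probe of Mtf1 had signals of 199, 289, 248 and 237 in the same order, again highest at 4 h. Its log2 ratios were 0.82 ± 0.22 at 4 h, -0.012 ± 0.22 at 20 h and 0.080 ± 0.23 at 32 h. The ratio of the brightest probe at 4 h exceeded that of the middle probe by 0.26 ± 0.30, which is within the spot error. On none of the arrays did the dimmest Mtf1 probe rise well above background, and its signals of 10.2, 7.37 and 10.0 in the control, at 4 h and at 20 h were surrogate values set by the scanner software. At 32 h it had 49.8, which the software marked as positive and significant but not as well above background, so no ratio was taken.

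Mt1, a metallothionein and a textbook target of MTF-1, had signals of 147448 in the control, 197264 at 4 h, 164516 at 20 h and 138898 at 32 h with its brighter probe. The 4 h array was the highest and the 32 h array the lowest. The log2 ratio over the control was 0.70 ± 0.20 at 4 h (1.63-fold), -0.17 ± 0.20 at 20 h and -0.26 ± 0.20 at 32 h. The dimmer Mt1 probe had signals of 391, 1202, 638 and 541 in the same order, so that the control was the lowest here and each later array lay above it. Its log2 ratio was 1.90 ± 0.21 at 4 h (3.73-fold), 0.37 ± 0.21 at 20 h and 0.29 ± 0.21 at 32 h.

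The probes of Mt1 thus moved by different amounts on the same arrays. At 4 h over the control, the log2 ratio of the dimmer probe exceeded that of the brighter probe by 1.20 ± 0.29, and a constant per array cancels in this difference. With quantile normalization it was 1.61, and with normexp background correction 1.04. At 20 h and 32 h the dimmer probe still exceeded the brighter one, by 0.55 ± 0.29 at both hours. Between 20 h and 32 h themselves the probes did not separate, with log2 ratios of 0.086 and 0.090. The mean pixel signal of the brighter spot was between 20.1% and 27.6% of the saturation value of the scanner, and no member spot was marked as saturated. These values concern the scanner only, and why the probes of Mt1 differ was not tested.

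Mt2, the other metallothionein expressed in most tissues, had signals of 144547 in the control, 203498 at 4 h, 144766 at 20 h and 136292 at 32 h. The 4 h array was the highest, and the other 3 lay close together. Its log2 ratio over the control was 0.77 ± 0.20 at 4 h (1.71-fold), -0.33 ± 0.20 at 20 h and -0.26 ± 0.20 at 32 h. These values were close to those of the brighter Mt1 probe, which minus Mt2 gave -0.074, 0.16 and -0.0013 at the 3 times, each within the spot error of 0.29 for such a difference. From 4 h to 20 h, Mt2 had a log2 ratio of -1.10 ± 0.20 and the brighter Mt1 probe -0.87 ± 0.20. Under the 5 other scalings Mt2 had -0.99 to -0.49, always under 2-fold, and the brighter Mt1 probe -0.76 to -0.26.

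Slc30a1, the exporter ZnT1, had signals of 656 in the control, 2410 at 4 h, 1005 at 20 h and 966 at 32 h. Its log2 ratio of 2.16 ± 0.21 at 4 h (4.47-fold) was the highest of the 7 detected probes, and 99.1% of the 20392 probes measured on both arrays had a lower one. At 20 h it was 0.28 ± 0.21 and at 32 h 0.38 ± 0.21, so that the signal stayed above the control by more than the spot error. The 4 h ratio of Slc30a1 exceeded that of the brighter Mt1 probe by 1.46 ± 0.29 and that of the brightest Mtf1 probe by 1.07 ± 0.29. From the dimmer Mt1 probe it differed by less than the spot error, the difference of that probe minus Slc30a1 being -0.26 ± 0.29.

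Slc39a10, the importer ZIP10, had signals of 415 in the control, 343 at 4 h, 530 at 20 h and 383 at 32 h. Here the 4 h array was the lowest before scaling and the 20 h array the highest. After scaling, its log2 ratio over the control was 0.0052 ± 0.21 at 4 h, 0.020 ± 0.21 at 20 h and -0.30 ± 0.21 at 32 h. The 4 h value turned negative under each of the 5 other scalings and ran down to -0.40. Between 20 h and 32 h it had 0.32 ± 0.21, the only detected member probe whose ratio between these hours exceeded the spot error. Exporter and importer were thus apart at 4 h, with a log2 ratio of Slc30a1 that exceeded that of Slc39a10 by 2.15 ± 0.29 (2.18 with quantile normalization and 1.99 with normexp). At 20 h the difference was 0.26 ± 0.29 and at 32 h 0.68 ± 0.29.

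**Figure D2:**
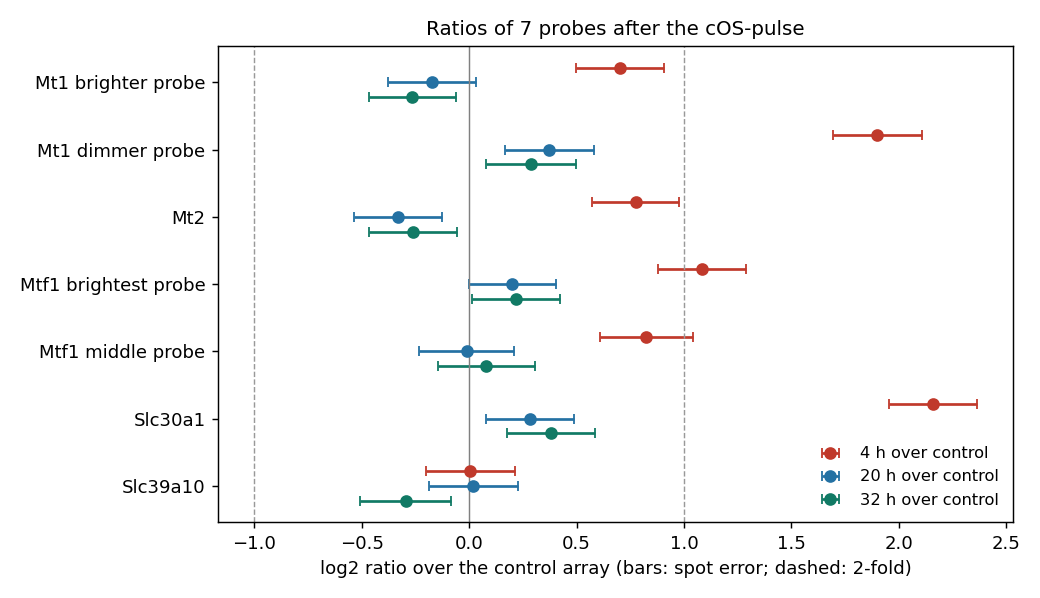
Log2 ratio of the 7 detected probes over the control array at 4 h, 20 h and 32 h after cOS-pulse, with the spot error as bars and 2-fold as dashed lines. At 4 h, Slc30a1 (2.16), the dimmer Mt1 probe (1.90) and the brightest Mtf1 probe (1.09) lie past the right dashed line, and no probe lies past either line at 20 h or 32 h.

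The size of the 4 h ratios depended on how the arrays were brought to 1 scale. The median log2 ratio of the 20392 probes measured on both arrays was 0.17, and the scaling alternatives lowered it by up to 0.40 (spike-in controls). The share of all probes at least 2-fold higher then ran from 3.33% to 5.33% and the share at least 2-fold lower from 6.08% to 9.70%. Slc30a1 kept 1.76 to 2.14 and the dimmer Mt1 probe 1.5 to 1.89 under the 5 other scalings, so both stayed past 2-fold. The brightest Mtf1 probe stayed past 2-fold under 1 of them, quantile normalization (1.08), and had 0.68 at the lowest. The brighter Mt1 probe had 0.29 to 0.58, Mt2 0.37 to 0.65 and the middle Mtf1 probe 0.42 to 0.74, all above 0 and under 2-fold. Relative to the median of all measured probes, which a constant per array leaves as it is, the 4 h log2 ratio was higher by 1.99 for Slc30a1, 1.73 for the dimmer Mt1 probe, 0.91 and 0.65 for the Mtf1 probes, 0.60 for Mt2 and 0.53 for the brighter Mt1 probe. For Slc39a10 it was -0.17. Of the measured probes, 98.6% had a lower ratio than the dimmer Mt1 probe, 93.0% than the brightest and 87.2% than the middle Mtf1 probe, 85.7% than Mt2, 83.3% than the brighter Mt1 probe and 40.1% than Slc39a10.

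**Figure D3:**
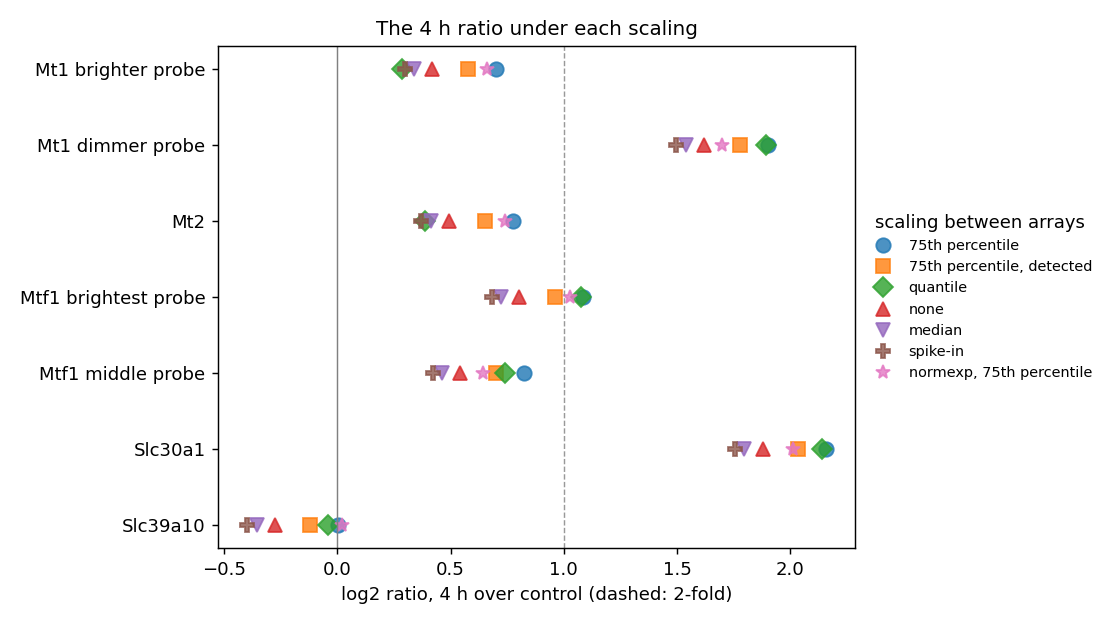
Log2 ratio of 4 h over the control for the 7 detected probes under each way of scaling between arrays and with normexp background correction, with 2-fold as a dashed line. Slc30a1 and the dimmer Mt1 probe stay to the right of the line throughout, with lowest values of 1.76 and 1.5, while Slc39a10 lies below 0 except with the 75th percentile of all probes (0.0052) and with normexp (0.020).

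At 20 h and 32 h the directions of small ratios also moved with the scaling. The brighter Mt1 probe at 20 h was above the control with quantile normalization, the spike-in controls or no scaling, and Mt2 at 20 h only without scaling (0.0022). At 32 h both stayed below the control under all 5, but within the spot error with quantile normalization, the spike-in controls or no scaling. Slc30a1, the dimmer Mt1 probe and the brightest Mtf1 probe stayed above the control at both hours under all 5. At 20 h the brightest Mtf1 probe had 0.202, and 0.188 at the lowest under the 5, each within its spot error of 0.204. The 228 detected probes that are printed in 10 spots had a median SD between their single-spot log2 ratios of 0.055 at 4 h over the control, which is less than the error of about 0.20 that the scanner software assigned.

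Other genes of zinc and copper handling were examined with the brightest probe of each gene. At 4 h, 2 of 39 genes on the array were at least 2-fold higher (Ndrg1 and Gclc), against 6.78% of the brightest probes of all genes, and 1 was at least 2-fold lower (Slc39a13), against 5.06%. With median, spike-in or no scaling 2 were lower. The higher share is near that of all genes, and nothing is read from 1 gene lower. Ndrg1 and Gclc both came from the list of 5 reported targets of MTF-1, which was chosen with earlier results of these data known. At 20 h there were 0 in either direction, against 0.822% and 2%, and with the spike-in controls or no scaling 1 was higher (Slc39a14, up to 1.17). At 32 h, 1 gene (Slc39a14) was at least 2-fold higher, against 1.26%, and 0 were at least 2-fold lower, against 1.55%. Ndrg1 lay just under 2-fold at 32 h (0.98, and up to 1.16 under the other scalings), so that 2 genes were past it with median, quantile, spike-in or no scaling.

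The brain and epithelial metallothioneins Mt3 and Mt4 did not follow Mt1 and Mt2 at 4 h. Mt3 had signals of 524 in the control, 430 at 4 h, 624 at 20 h and 656 at 32 h, with a log2 ratio of -0.0036 ± 0.21 at 4 h. Mt4 had 131, 130, 111 and 77.1, with log2 ratios of 0.27 ± 0.23 at 4 h, -0.57 ± 0.25 at 20 h and -0.95 ± 0.29 at 32 h. Its 4 h value turned negative under some of the scalings, down to -0.13.

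The Slc30 family of transporters moves zinc out of the cytosol, across the cell membrane or into organelles. Of 9 members beside Slc30a1, 6 were well above background and had a ratio, and 0 of them were past 2-fold at 4 h in either direction. Their log2 ratios at 4 h ran from -0.012 ± 0.20 (Slc30a9) to 0.74 ± 0.34 (Slc30a2), with a median of 0.35 against 0.22 over all genes. Slc30a2 was dim, with signals of 58.6 in the control and 80.3 at 4 h. Under the 5 other scalings the median of the 6 ran from -0.051 to 0.33, so its sign depended on the scaling. These scalings also move the median over all genes. Slc30a3, Slc30a8 and Slc30a10 were detected on none of the arrays.

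The Slc39 family brings zinc into the cytosol. Of 13 members beside Slc39a10, 11 had a ratio at 4 h, 1 of them (Slc39a2) as a bound. Their median log2 ratio was 0.24 against 0.22 over all genes. It ran from -0.28 to 0.12 under the other scalings, which also move the median over all genes. Slc39a13, the transporter ZIP13 of the secretory pathway, had signals of 7813 in the control, 2385 at 4 h, 8406 at 20 h and 9074 at 32 h. The 4 h array alone was low, with a log2 ratio of -1.43 ± 0.20, and it stayed at least 2-fold lower under all 5 other scalings (-1.83 to -1.50). Slc39a7 had the highest ratio at 4 h, 0.80 ± 0.20. Slc39a14, the transporter ZIP14 that also carries iron and manganese, had signals of 1658, 1376, 3721 and 3841, so that both late arrays lay above the early ones. Its log2 ratio was 0.012 ± 0.20 at 4 h, 0.83 ± 0.20 at 20 h and 1.03 ± 0.20 at 32 h.

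Among 5 further genes reported as targets of MTF-1, the median log2 ratio at 4 h was 0.62 against 0.22 over all genes. It ran from 0.21 to 0.49 under the other scalings, which also move the median over all genes. Ndrg1, which is known to respond to metals and to low oxygen, had signals of 13157, 67844, 24084 and 29360 and a log2 ratio of 2.65 ± 0.20 at 4 h (6.27-fold), 0.54 ± 0.20 at 20 h and 0.98 ± 0.20 at 32 h. Gclc, which encodes the catalytic subunit of the first enzyme of glutathione synthesis and is also a target of Nrf2, had 3297, 10054, 3962 and 3236, with 1.89 ± 0.20 at 4 h. Sepw1 had 0.62 ± 0.20 at 4 h, Csrp1 -0.22 ± 0.20 and Pgf -0.29 ± 0.25. Csrp1, which encodes a LIM-domain protein, was lowest late, with -0.80 ± 0.20 at 20 h and -0.88 ± 0.20 at 32 h. Of 10 genes of copper handling, 8 had a ratio at 4 h and 0 were past 2-fold in either direction. They ran from -0.54 ± 0.20 (Slc31a2) to a bound of 0.20 (Atp7b), with a median of -0.044 against 0.22 over all genes. The median of the 8 ran from -0.49 to -0.17 under the other scalings, which also move that over all genes.

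**Figure D4:**
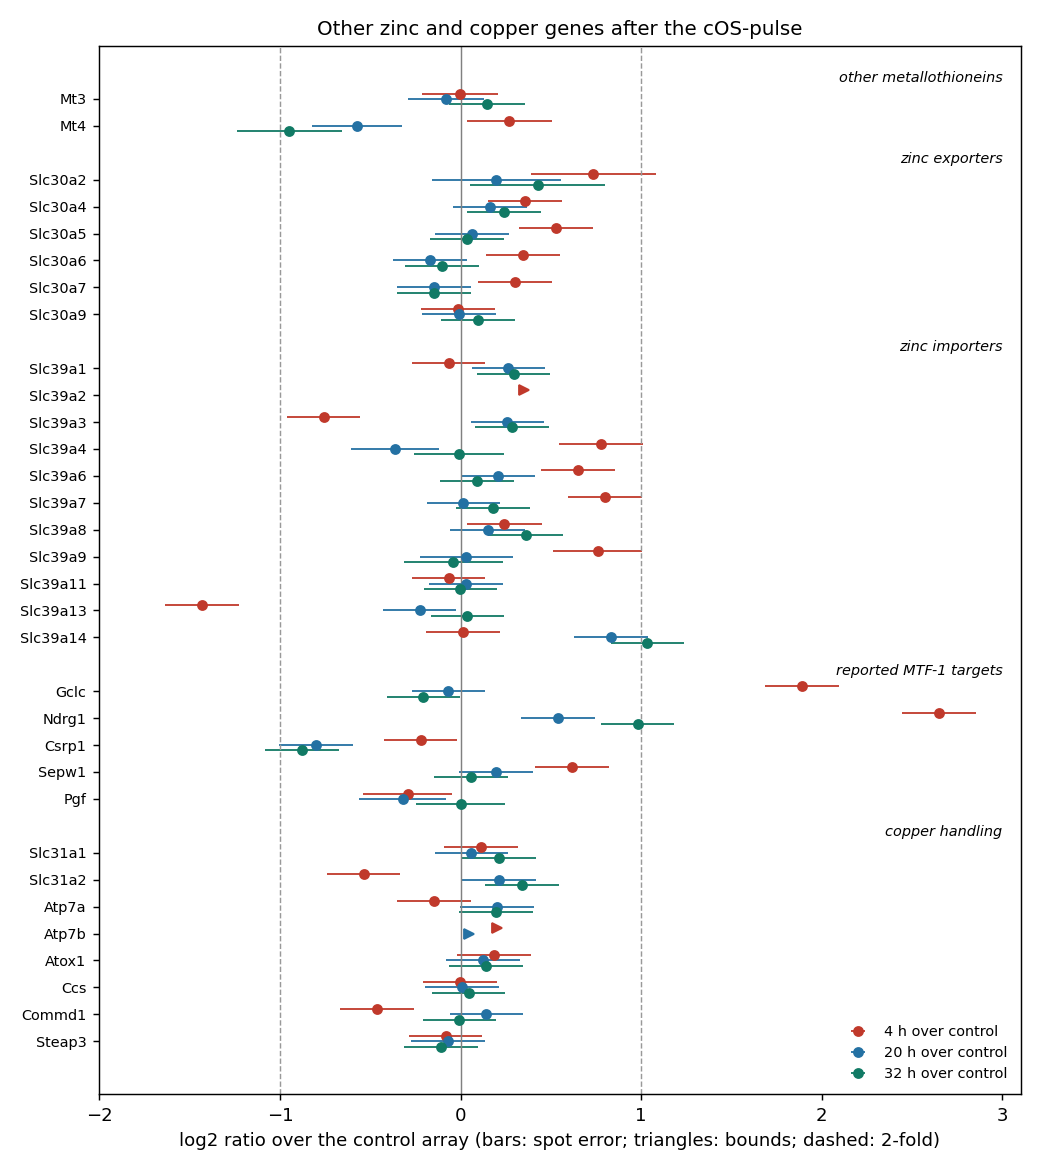
Log2 ratio over the control array at 4 h, 20 h and 32 h for the genes of the lists that had a ratio, by their brightest probe, with the spot error as bars, bounds as triangles and 2-fold as dashed lines. At 4 h, Ndrg1 (2.65) and Gclc (1.89) lie past the right line and Slc39a13 (-1.43) past the left one, and Slc39a14 crosses the right line at 32 h (1.03).

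The probes of other genes with the nearest 3 ratios over the control were found by the root mean square difference in log2. They were sought among about 14970 probes that carried a RefSeq gene symbol and were well above background on all 4 arrays. Nearest to the brighter Mt1 probe were Tomm70a (0.018), Eprs (0.027) and Prep (0.027), and nearest to Mt2 were Usp25 (0.028), 1700017B05Rik (0.028) and Rbm34 (0.031). Nearest to the brightest Mtf1 probe were Khsrp (0.030), Dcaf12 (0.030) and Psma5 (0.031). Slc30a1, whose 4 h ratio lay above that of 99.1% of the measured probes, had no neighbor as close, with Map3k15 (0.077), Gramd3 (0.078) and D830025C05Rik (0.086). Slc39a10 lay nearest to Kif24 (0.011), Atf2 (0.029) and Srcap (0.034). With 3 ratios that share 1 control array, many probes fall close together by this measure.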

How the data were processed

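Gene expression in NIH-3T3:Per2-Luc was measured on 4 one-color Agilent arrays of 1 slide. The authors deposited spot intensities from Agilent Feature Extraction 10.7.3.1, in which a fitted spatial background surface, not the local background, had been subtracted from each spot and a multiplicative trend divided out. A second table the authors deposited holds these values over 1 constant per array and served as an alternative. Spots with an outlier flag were left out, log2 intensities were averaged per probe, and each array was shifted by its own 75th percentile. Detection of a probe required the well-above-background flag on 50% or more of its spots. With 1 array detected, the ratio was a bound taken over the lowest detected signal of the other array. The arrays had 20762 to 23295 probes detected, 125 to 161 flagged spots and 0 saturated ones. The 5 genes, the 5 lists and the motifs were chosen with earlier results of these data known. In the lists, genes past 2-fold and the extremes were named, and for each of the 5 genes the nearest 3 probes. The number of arrays limits the precision. SAM, which the study's methods name, needs replicates and was not run. The steps were tested on simulated data. Alternatives were 5 scalings, normexp with an offset of 50 (limma 3.58.1, R 4.3.3), other filters and thresholds of 1.5-fold and 3-fold. Python 3.11.15, numpy 2.4.6 and pandas 2.3.3 were used.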

Additional observations from a re-analysis of the deposited data

Results flagged for a closer look

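For Mt2 and the brighter Mt1 probe, single arrays lay on opposite sides of the control at different times, each by more than the spot error of 0.20, and the difference was not tested. The brighter Mt1 probe had a log2 ratio of 0.70 at 4 h and -0.26 at 32 h, while its value of -0.17 at 20 h was within the spot error. Mt2 had 0.77 at 4 h, -0.33 at 20 h and -0.26 at 32 h. The late values depended on the scaling. At 32 h they shrank to within the spot error with quantile normalization (-0.083 for Mt1 and -0.073 for Mt2), the spike-in controls (-0.11 for both) and no scaling (-0.086 and -0.085), and the 20 h value of Mt2 turned to 0.0022 without scaling. The dimmer Mt1 probe lay above the control at all 3 times.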

How the results depend on the processing

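No paired analysis was possible because each condition has 1 array. The count of 3 member probes at least 2-fold higher at 4 h became 2 with median, spike-in or no scaling and with a 75th percentile taken over commonly detected probes, under which the brightest Mtf1 probe was under 2-fold. A threshold of 1.5-fold gave 6 and a threshold of 3-fold 2. Without a filter on dim probes, or with the flag for positive and significant signals, 1 member probe (the dimmest of Mtf1) was at least 2-fold higher at 32 h than in the control and 1 lower at 20 h than at 32 h. The 2 list genes at least 2-fold higher at 4 h became 4 without the filter, 4 with that flag and 8 at 1.5-fold. The 1 list gene at least 2-fold lower became 2 with median, spike-in or no scaling, without the filter, with that flag and at 1.5-fold, and 0 at 3-fold. For the list genes at 20 h and 32 h the alternatives were added after seeing the data. At 20 h the count of 0 at least 2-fold higher became 1 with the spike-in controls, with no scaling and at 1.5-fold, and the count of 0 lower became 1 without the filter, with that flag and at 1.5-fold. At 32 h the count of 1 higher became 2 with median, quantile, spike-in or no scaling and at 1.5-fold, 3 without the filter and with that flag, and 0 at 3-fold, and the count of 0 lower became 1 without the filter and with that flag and 2 at 1.5-fold. The other alternatives kept these counts within 1.5 times, and no member ratio past 2-fold changed direction.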
